A study of Mus musculus with 8 samples.

Results

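Sodium, calcium and transient receptor potential (TRP) channel genes were examined in RNA sequencing libraries from mouse pancreatic islets. Members were the protein-coding genes named as Scn, Cacna, Cacnb, Cacng, Trpa, Trpc, Trpm or Trpv genes, with at least 10 exon reads in 2 or more libraries. Of 63 genes with such names, among 22018 protein-coding rows, 43 met that minimum, and all 43 were among the 15014 genes tested. They comprised 42 channel subunits and Trpc4ap, which carries a channel's name but encodes a protein that binds one and serves a ubiquitin ligase. The islets came from C57BL/6 mice aged 1 year, labelled either β-Tead1-KO or Flox/Flox. Tead1 is a transcription factor that works with the coactivators YAP and TAZ, and the sample descriptions place the floxed allele at Tead1. Which Cre transgene the β-Tead1-KO mice carried, and whether the Flox/Flox mice carried one, is not given in the sources used here. Each genotype had 2 libraries, each run on 2 lanes, with 22352518 and 26387280 exon reads in libraries labelled β-Tead1-KO, against 21938244 and 14069569 in the Flox libraries. The design text speaks of 3 pooled samples per library, while the descriptions list 1 or 2 numbers, so how many animals stand behind a library is unclear and the p-values measure only the spread between these libraries.

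Islet cells are electrically excitable. In a mouse β-cell, glucose metabolism closes potassium channels, the membrane depolarises, and voltage-gated sodium and calcium channels carry the action potential, with calcium entry triggering insulin exocytosis. TRP channels pass background or calcium-activated cation currents that add to the depolarisation. Each voltage-gated channel has a pore-forming α subunit, and the accessory subunits set its trafficking and gating.

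Tead1 exon reads did not separate the genotypes in the direction of the label. In RPKM (exon reads per kilobase of exon and per megaread, scaled with TMM factors), Tead1 stood at 12.2 and 14.5 in libraries labelled β-Tead1-KO and at 9.01 and 11.01 in Flox. It did not pass (log2 fold change 0.41, SE 0.19, edgeR adjusted p = 0.347). Gene-level reads cannot resolve a deleted exon, so this value does not check the labels, and every direction given rests on them. Reads in introns made up 29.4% and 38.0% of gene reads in libraries labelled β-Tead1-KO and 28.8% and 43.1% in Flox, higher in library 2 of both genotypes. Whole islets were sequenced, so fewer cells of a type and less RNA per cell cannot be told apart in any result.

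Across the family, 7 genes fell and 1 rose. Among those that fell were the sodium channel α subunits Scn9a and Scn3a, the T-type calcium channel Cacna1h, the γ-family gene Cacng4, and the cation channels Trpm5 and Trpm2, and the gene that rose was Cacng2. The 8 called genes were 18.6% of the 43, while 3.36% of all tested genes were called (edgeR quasi-likelihood test, Benjamini-Hochberg adjusted p below 0.05). Calls downward covered 1.6% of all tested genes and calls upward 1.76%. The log2 fold change (β-Tead1-KO over Flox) was below 0 for 33 members and above 0 for 10. Its median was -0.47 over the members and -0.01 over all tested genes, of which 51.2% lay below 0. Another 8 members had an unadjusted p below 0.05 without passing, which makes 16 of the 43 members. Among all tested genes the share with an unadjusted p below 0.05 was 16.8%. Both libraries labelled β-Tead1-KO lay below both Flox libraries for 17 of the 43 members and above them for 5 of the 43. Of all tested genes, 24.2% lay below and 23.9% above in that way. Of the 43, 35 met the read minimum in both genotypes, 4 in Flox alone (Cacna1i, Trpa1, Trpc5 and Trpm6), 2 in β-Tead1-KO alone (Cacng2 and Cacng3) and 2 through 1 library of each (Trpc2 and Trpv4). The 6 that met it in 1 genotype alone entered on higher read counts there, and read counts also follow library depth, which was lowest in Flox library 2.

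**Figure D1:**
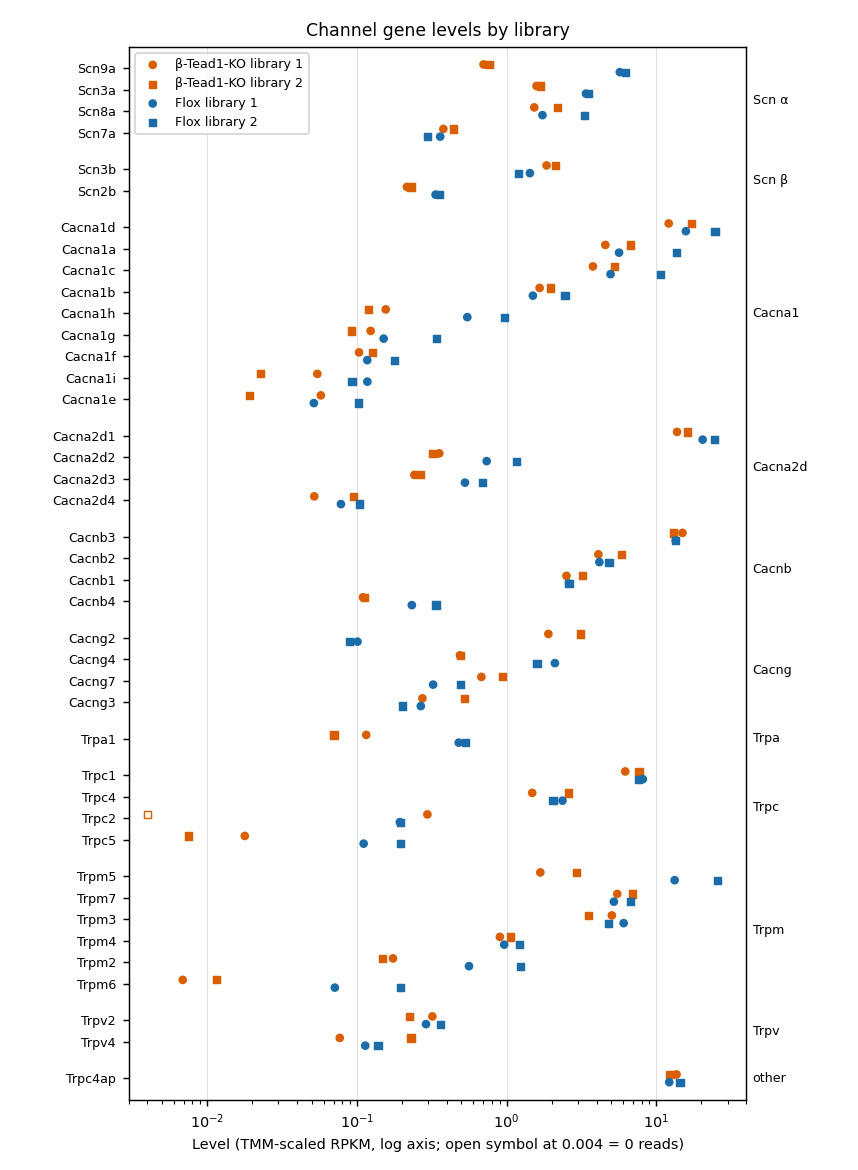
Level of 41 of the 43 members in each library, as TMM-scaled RPKM on a log axis, grouped by subunit class; orange marks β-Tead1-KO and blue Flox, with circles for library 1 and squares for library 2. Scn9a, Trpm5 and Cacng2 show the widest separation of the colours among the called genes, and an open symbol marks a library with 0 reads (Trpc2).

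The read minimum left out 20 genes, of which 5 had no read in any library (Scn10a, Cacng8, Trpm8, Trpv5 and Trpc5os). Just below the minimum stood Trpc7, a diacylglycerol-gated channel, with 4 and 7 reads in libraries labelled β-Tead1-KO and 8 and 17 in Flox. Just inside it stood Trpv4, an osmosensitive channel, with 7 and 25 reads in libraries labelled β-Tead1-KO and 10 and 8 in Flox. The gene listed as Scn2a1, a neuronal sodium channel α subunit, is not matched by the name pattern and was left out of the counts. It had 16 and 14 reads in libraries labelled β-Tead1-KO against 40 and 42 in Flox, a log2 fold change of -1.94 (SE 0.47) that did not pass (edgeR adjusted p = 0.103).

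The promoters of Trpm5 and Scn9a, which had the lowest log2 fold changes among the called genes, are shown because TEAD factors bind the letters GGAATG, and because those genes start at the same base in RefSeq and in the deposited tables. The 250 bases upstream of Scn9a (GRCm38, chr2:66634963-66635212, minus strand) and of Trpm5 (chr7:143094643-143094892, minus strand) are given 5′ to 3′ from RefSeq. Those of Scn7a (chr2:66784911-66785160, minus strand), a neighbour of Scn9a that did not pass the test, stand beside them as a window that holds the motif. Capitals mark GGAATG, which was searched on both strands (CATTCC on the other).
Scn9a: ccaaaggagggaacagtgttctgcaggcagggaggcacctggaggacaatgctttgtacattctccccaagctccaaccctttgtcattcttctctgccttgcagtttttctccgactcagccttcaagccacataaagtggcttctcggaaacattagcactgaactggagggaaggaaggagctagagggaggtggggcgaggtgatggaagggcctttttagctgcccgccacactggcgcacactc
Trpm5: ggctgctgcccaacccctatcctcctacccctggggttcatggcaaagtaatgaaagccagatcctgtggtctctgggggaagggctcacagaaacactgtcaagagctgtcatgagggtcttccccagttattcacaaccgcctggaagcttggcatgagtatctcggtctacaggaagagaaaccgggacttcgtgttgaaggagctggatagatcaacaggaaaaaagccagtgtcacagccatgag
Scn7a: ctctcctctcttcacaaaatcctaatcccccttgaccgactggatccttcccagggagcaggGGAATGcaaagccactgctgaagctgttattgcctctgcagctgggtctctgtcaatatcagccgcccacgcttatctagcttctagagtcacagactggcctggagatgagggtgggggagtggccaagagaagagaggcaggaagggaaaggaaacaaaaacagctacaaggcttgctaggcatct

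The motif was absent from the windows of Scn9a and Trpm5 and present once in that of Scn7a. Of the 8 called genes, 4 had a window in the RefSeq table (Scn9a, Trpm5, Trpm2 and Cacng2), and 0 of these windows held the motif. For Trpm2 and Cacng2 the RefSeq start lies inside the gene as deposited, so their windows are not upstream of the deposited start. Among 32 members with a window, 7 of 44 windows held it (15.9%), those of Cacna1e, Cacna2d2, Cacng3, Cacng7, Scn7a, Trpc2 and Trpv2. The share over all 32851 promoter windows was 12.6%. These counts describe letters in 250 bases and not binding.

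Scn9a encodes a pore-forming sodium channel subunit best known from pain-sensing neurons, and it is a main sodium channel transcript of mouse islet cells. It had 200 and 260 exon reads, or 0.702 and 0.764 RPKM, in libraries labelled β-Tead1-KO, against 1570 and 1126 reads, or 5.71 and 6.22 RPKM, in Flox. Both libraries labelled β-Tead1-KO were low and the genotypes did not overlap. The log2 fold change was -3.02 (SE 0.17, edgeR adjusted p = 0.00233). Only 51.0% of its reads were unique, which leaves its level uncertain, and on unique reads alone the log2 fold change was -3.08 and passed as well.

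Scn3a, the other α subunit prominent in mouse β-cells, had 1.59 and 1.69 RPKM in libraries labelled β-Tead1-KO and 3.39 and 3.53 in Flox. The libraries of a genotype lay close together, and the genotypes did not overlap. The log2 fold change was -1.08 (SE 0.16, edgeR adjusted p = 0.0284). Scn8a, a sodium channel of neuronal axons, was at 1.53 and 2.19 RPKM in libraries labelled β-Tead1-KO and at 1.74 and 3.33 in Flox. Its ranges overlapped, and the log2 fold change of -0.44 (SE 0.35) did not pass (edgeR adjusted p = 0.594). Scn7a, an atypical family member linked to sodium sensing, was at 0.379 and 0.440 RPKM in libraries labelled β-Tead1-KO and at 0.361 and 0.298 in Flox (log2 fold change 0.31, SE 0.31, adjusted p = 0.692).

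Summed RPKM of the sodium channel α genes came to 4.26 and 5.11 in libraries labelled β-Tead1-KO, against 11.2 and 13.5 in Flox. Scn9a supplied 16.5% and 14.96% of that sum in libraries labelled β-Tead1-KO and 50.7% and 46.1% in Flox. Scn3a (37.3% and 33.2%) and Scn8a (36.0% and 42.9%) each took a larger share than Scn9a in libraries labelled β-Tead1-KO. In both Flox libraries Scn9a led, ahead of Scn3a (30.2% and 26.2%) and Scn8a (15.4% and 24.7%).

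The α genes other than Scn8a with the most reads lie together on mouse chromosome 2 (mm10). Scn3a spans 65457118 to 65567627, Scn9a 66480080 to 66634962 and Scn7a 66673425 to 66784914, all on the minus strand. Scn2a1 (65620771 to 65767447, plus strand) and Scn1a (66270778 to 66440840, minus strand), a neuronal channel with at most 6 reads in any library, lie between Scn3a and Scn9a. Of these neighbours Scn3a and Scn9a were called lower, and Scn2a1 lay below 0 without passing (log2 fold change -1.94). Scn7a lay above 0 without passing (log2 fold change 0.31), and Scn1a was too low to test.

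The sodium channel β subunits are single-pass proteins that modulate gating and carry the α subunit to the surface. Scn3b, one of them, was at 1.85 and 2.12 RPKM in libraries labelled β-Tead1-KO and at 1.43 and 1.21 in Flox (log2 fold change 0.59, SE 0.22, adjusted p = 0.264). For Scn2b the log2 fold change was -0.62 (adjusted p = 0.514), with 27.4% of its reads unique, which leaves its level uncertain.

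**Figure D2:**
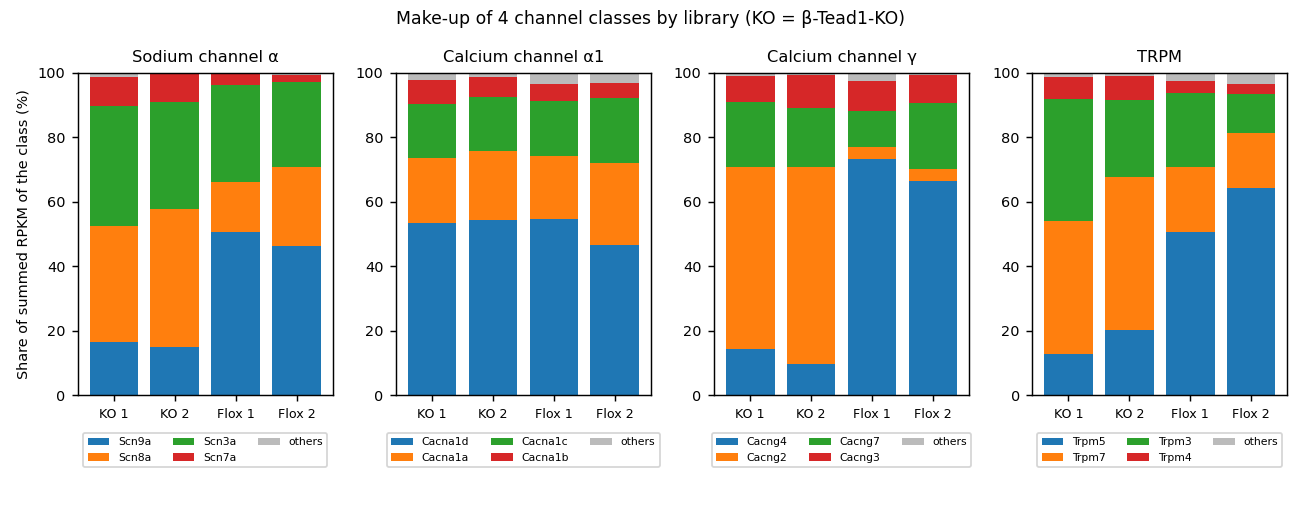
Share of the summed RPKM of each class taken by its 4 most abundant genes, as stacked bars per library in percent, with β-Tead1-KO libraries left of Flox. Scn9a supplied 16.5% and 14.96% of the sodium channel α sum in libraries labelled β-Tead1-KO and 50.7% and 46.1% in Flox, while the calcium channel α1 bars keep Cacna1d as the largest segment in every library.

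The calcium channel α1 genes divide into high-voltage types (L, P/Q, N and R) and low-voltage T-types, and 1 of the 9 kept members passed the test. Cacna1d, an L-type channel and the most abundant α1 transcript, was at 12.1 and 17.1 RPKM in libraries labelled β-Tead1-KO and at 15.8 and 24.7 in Flox (log2 fold change -0.47, SE 0.28, edgeR adjusted p = 0.487). Cacna1c, the other L-type channel of mouse β-cells, was at 3.78 and 5.29 RPKM in libraries labelled β-Tead1-KO and at 4.95 and 10.7 in Flox (log2 fold change -0.79, SE 0.38, adjusted p = 0.385). In these genes library 2 was higher than library 1 in both genotypes, and the ranges of the genotypes overlapped.

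Cacna1a, the P/Q-type channel, followed that pattern with 4.57 and 6.73 RPKM in libraries labelled β-Tead1-KO and 5.64 and 13.6 in Flox (log2 fold change -0.76, SE 0.43, adjusted p = 0.452). Without Flox library 1 the log2 fold change was -0.75 for Cacna1d, -1.23 for Cacna1c and -1.25 for Cacna1a. Without Flox library 2 it was -0.11 for Cacna1d, -0.13 for Cacna1c and 0.00 for Cacna1a. For Cacna1b, the N-type channel, the log2 fold change was -0.12 (adjusted p = 0.878). Cacna1e, the R-type channel, had 30 and 12 reads in libraries labelled β-Tead1-KO and 26 and 34 in Flox (log2 fold change -0.995, SE 0.66, adjusted p = 0.526). Cacna1d held 46.5% to 54.6% of the α1 sum over the 4 libraries, and Cacna1d, Cacna1a, Cacna1c and Cacna1b kept that order in each.

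Cacna1h, a T-type channel that opens near the resting potential, had 0.156 and 0.119 RPKM, from 34 and 31 reads, in libraries labelled β-Tead1-KO, against 0.547 and 0.968 RPKM, from 115 and 134 reads, in Flox. Both libraries labelled β-Tead1-KO were low, and the log2 fold change was -2.45 (SE 0.39, edgeR adjusted p = 0.0355). The other T-type genes did not pass. Cacna1g was at 0.124 and 0.0926 RPKM in libraries labelled β-Tead1-KO and at 0.151 and 0.341 in Flox (adjusted p = 0.343). Cacna1i was at 0.0545 and 0.0228 RPKM in libraries labelled β-Tead1-KO and at 0.118 and 0.0930 in Flox (adjusted p = 0.331). Cacna1h supplied 0.690% and 0.379% of the α1 sum in libraries labelled β-Tead1-KO and 1.90% and 1.82% in Flox, a small part of the α1 transcripts in either.

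The α2δ subunits sit outside the membrane and raise the number of calcium channels at the surface. None of the 4 passed in edgeR's quasi-likelihood test, with 3 at an unadjusted p below 0.05, 1 called by DESeq2 and 0 by limma-voom. Cacna2d1 was at 13.8 and 16.1 RPKM in libraries labelled β-Tead1-KO and at 20.4 and 24.4 in Flox, ranges that did not overlap (log2 fold change -0.59, SE 0.19, adjusted p = 0.189). Cacna2d2, named after its values were seen, was at 0.355 and 0.323 RPKM in libraries labelled β-Tead1-KO and at 0.737 and 1.17 in Flox (log2 fold change -1.48, SE 0.34), which missed in edgeR (adjusted p = 0.0909) and passed in DESeq2 (adjusted p = 0.0480). Cacna2d1 held 92.6% to 95.9% of the summed level of the class over the 4 libraries.

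The cytosolic calcium channel β subunits, which bind the α1 subunit and promote its surface expression, had no call in edgeR, DESeq2 or limma-voom and 1 gene, Cacnb4, at an unadjusted p below 0.05. Their summed level was 21.7 and 22.2 RPKM in libraries labelled β-Tead1-KO and 20.5 and 21.2 in Flox. Cacnb3, the most abundant, was at 14.95 and 12.99 RPKM in libraries labelled β-Tead1-KO and at 13.5 and 13.4 in Flox (log2 fold change 0.06, SE 0.16, adjusted p = 0.901). Cacnb2, the β subunit linked to calcium currents of mouse β-cells, was at 4.10 and 5.89 RPKM in libraries labelled β-Tead1-KO and at 4.17 and 4.84 in Flox (log2 fold change 0.15, SE 0.22, adjusted p = 0.791). Of the reads of Cacnb4 2.19% were unique, so its log2 fold change of -1.34 (edgeR adjusted p = 0.162) is uncertain.

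The γ-family held the only rise. Cacng2 (stargazin) is grouped with calcium channel γ subunits by name, but it and its relatives Cacng3, Cacng4 and Cacng7 are known mainly as auxiliary subunits of AMPA-type glutamate receptors. Cacng2 had 1.90 and 3.13 RPKM, from 234 and 459 reads, in libraries labelled β-Tead1-KO, against 0.101 and 0.0896 RPKM, from 12 and 7 reads, in Flox. Every library labelled β-Tead1-KO was far above both Flox libraries. The log2 fold change was 4.70 (SE 0.39, edgeR adjusted p = 0.00615), an estimate of 25.9-fold. A noncoding transcript on the opposite strand at the same locus, A730060N03Rik, had 23 and 21 reads in libraries labelled β-Tead1-KO and 0 and 1 in Flox. Since the use of strand in counting is not given in the sources used here, reads of Cacng2 and of this transcript cannot be told apart where they overlap.

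Cacng4 had 0.489 and 0.493 RPKM, from 39 and 47 reads, in libraries labelled β-Tead1-KO, against 2.10 and 1.60 RPKM, from 162 and 81 reads, in Flox. The genotypes did not overlap (log2 fold change -1.92, SE 0.29, edgeR adjusted p = 0.0312). Cacng7 was at 0.679 and 0.938 RPKM in libraries labelled β-Tead1-KO and at 0.323 and 0.491 in Flox, and did not pass (log2 fold change 1.02, SE 0.44, adjusted p = 0.330). Within the class Cacng2 took 56.3% and 61.0% of the summed level in libraries labelled β-Tead1-KO and 3.53% and 3.73% in Flox. Cacng4 took 14.5% and 9.63% in libraries labelled β-Tead1-KO and 73.3% and 66.6% in Flox, so the leading γ-family transcript differed between the genotypes.

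**Figure D3:**
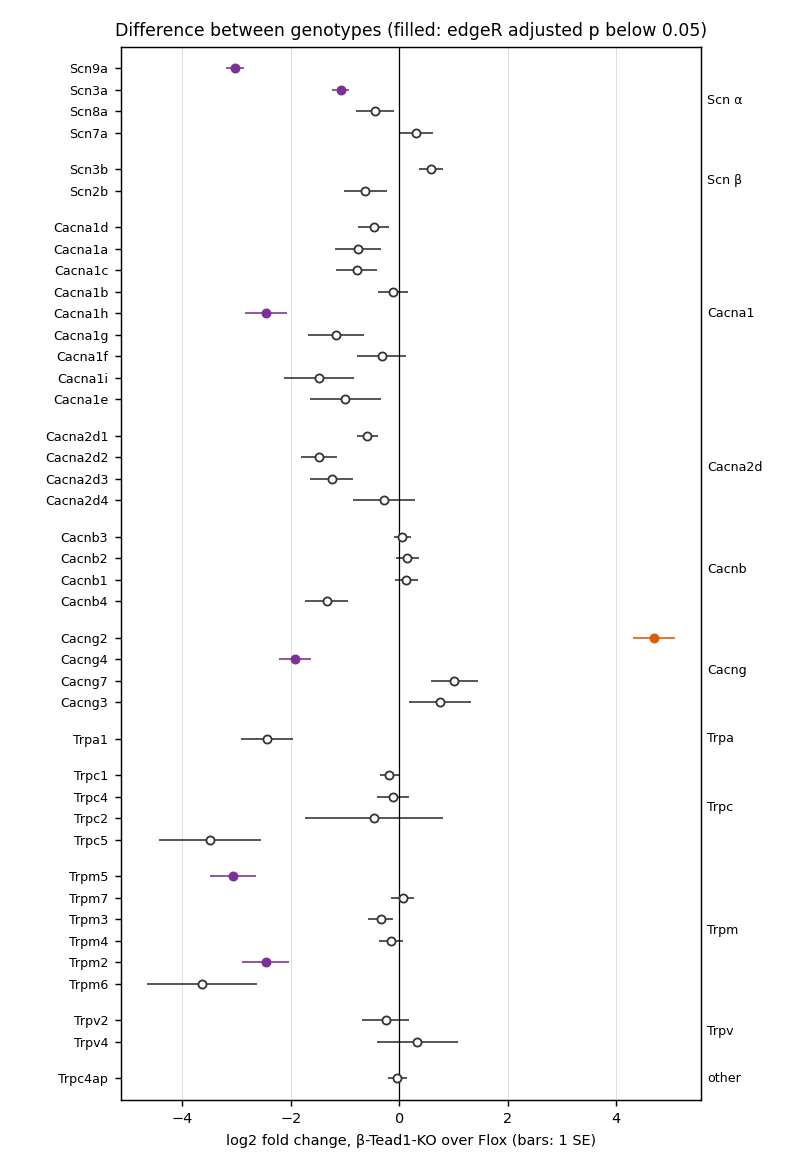
Log2 fold change of 41 of the 43 members, β-Tead1-KO over Flox, with bars of 1 SE from the edgeR fit across all genes; filled symbols passed an adjusted p of 0.05. The 6 filled symbols left of 0 and the 1 on the right (Cacng2, 4.70) are called genes, and the wide bars of Trpm6 and Trpc5 rest on 3 reads over both libraries labelled β-Tead1-KO.

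TRPM channels are cation channels with diverse gates, and 2 of the 6 kept members fell. Trpm5, opened by intracellular calcium and known from taste cells and β-cells, had 240 and 502 reads, or 1.68 and 2.94 RPKM, in libraries labelled β-Tead1-KO, against 1827 and 2318 reads, or 13.3 and 25.6 RPKM, in Flox. Library 2 was the higher in both genotypes, and the genotypes did not overlap. The log2 fold change was -3.07 (SE 0.42, edgeR adjusted p = 0.0235). Tssc4 overlaps Trpm5 on the opposite strand, with 832 and 960 reads in libraries labelled β-Tead1-KO and 1062 and 1122 in Flox, and reads from the shared stretch cannot be told apart.

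Trpm2, gated by ADP-ribose and oxidative stress, had 48 and 49 reads, or 0.175 and 0.149 RPKM, in libraries labelled β-Tead1-KO, against 149 and 216 reads, or 0.562 and 1.24 RPKM, in Flox. Both Flox libraries were higher but lay apart from each other (log2 fold change -2.46, SE 0.43, edgeR adjusted p = 0.0452). Trpm4, like Trpm5 a calcium-activated channel, was at 0.902 and 1.06 RPKM in libraries labelled β-Tead1-KO and at 0.965 and 1.22 in Flox, with overlapping ranges (log2 fold change -0.15, SE 0.22, adjusted p = 0.792).

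Trpm7, a channel fused to a kinase that admits magnesium, was at 5.49 and 6.94 RPKM in libraries labelled β-Tead1-KO and at 5.21 and 6.70 in Flox (log2 fold change 0.06, SE 0.20, adjusted p = 0.915). Trpm3, activated by the steroid pregnenolone sulphate, was at 5.05 and 3.52 RPKM in libraries labelled β-Tead1-KO and at 6.05 and 4.81 in Flox (log2 fold change -0.34, SE 0.23, adjusted p = 0.537). Neither separated the genotypes. Trpm5 made up 12.6% and 20.1% of the summed TRPM level in libraries labelled β-Tead1-KO and 50.8% and 64.3% in Flox. The share of Trpm7 was 41.2% and 47.5% in libraries labelled β-Tead1-KO and 19.9% and 16.9% in Flox. Trpm6, a relative of Trpm7 named after its values were seen, had 1 and 2 reads in libraries labelled β-Tead1-KO and 10 and 18 in Flox, and did not pass (edgeR adjusted p = 0.131).

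No gene of the TRPA, TRPC or TRPV families passed in edgeR; 2 of their 8 kept members had an unadjusted p below 0.05 (Trpa1 and Trpc5), DESeq2 called 1 (Trpa1) and limma-voom 0. Trpa1, a sensor of irritant chemicals, had 11 and 8 reads, or 0.116 and 0.0704 RPKM, in libraries labelled β-Tead1-KO, against 44 and 32 reads, or 0.479 and 0.529 RPKM, in Flox. Its ranges did not overlap, and its log2 fold change of -2.44 (SE 0.48) missed the threshold in edgeR (adjusted p = 0.0608) and passed in DESeq2 (adjusted p = 0.0408). Trpc5, a receptor-operated channel named after its values were seen, had 2 and 1 reads in libraries labelled β-Tead1-KO and 12 and 14 in Flox (edgeR adjusted p = 0.125). Trpc1, the most abundant TRPC transcript, was at 6.203 and 7.67 RPKM in libraries labelled β-Tead1-KO and at 8.13 and 7.64 in Flox (log2 fold change -0.18, SE 0.18, adjusted p = 0.674). For Trpc4 the log2 fold change was -0.12, and Trpc2 had no unique reads. Trpv2, a mechanosensitive channel, was at 0.320 and 0.226 RPKM in libraries labelled β-Tead1-KO and at 0.290 and 0.362 in Flox (log2 fold change -0.25, SE 0.43, adjusted p = 0.830). Trpc4ap, which is no channel, was at 13.7 and 12.3 RPKM in libraries labelled β-Tead1-KO and at 12.2 and 14.4 in Flox (log2 fold change -0.03).

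Exon-exon junction reads are a part of the exon reads, so a call on them is not a separate measure. Intron reads are counted apart from exon reads. On junction reads 7 of the 8 called genes could be tested and all 7 passed. Scn9a was at -3.08, Trpm2 at -2.58 and Cacng2 at 4.99 on the log2 scale. With Cacna2d2 and Trpa1, 9 of the 34 members tested there passed, where 4.2% of all genes tested on junctions were called. Cacng4 had too few junction reads to test. On intron reads all 8 kept their sign, and 2 of the 39 members tested there passed, Scn9a at -2.79 (edgeR adjusted p = 0.0204) and Trpm5 at -3.33 (edgeR adjusted p = 0.0130), where 0.748% of all genes tested on introns were called. Cacng2 had 159 and 1318 intron reads in libraries labelled β-Tead1-KO and 8 and 107 in Flox, and the genotypes lay closer together than on exon reads (log2 fold change 3.44, adjusted p = 0.0944). Cacng4 (-2.50), Cacna1h (-2.68) and Trpm2 (-1.62) did not pass on introns, nor did Scn3a (-0.85).

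**Figure D4:**
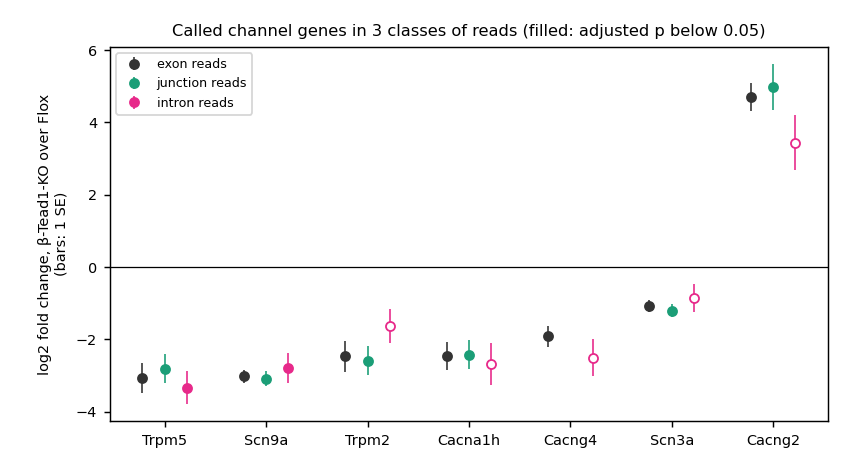
Log2 fold change, β-Tead1-KO over Flox, of 7 called genes on exon, exon-exon junction and intron reads, with bars of 1 SE; filled symbols passed an adjusted p of 0.05. Every estimate has the sign of the exon value, intron values passed for Trpm5 and Scn9a, and Cacng4 has no junction value.

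The number of members called moved with the tool and with single libraries. DESeq2 called 10 members, adding Cacna2d2 and Trpa1, where it called 6.68% of all genes with an adjusted p. Limma-voom called 5 (Scn9a, Scn3a, Cacng4, Trpm5 and Cacng2), where it called 2.62% of all genes. Without β-Tead1-KO library 1 or without β-Tead1-KO library 2 the calls were Scn9a and Cacng2 alone, and Trpm5 missed at an edgeR adjusted p of 0.111 and 0.0772. The median log2 fold change of the members was -0.66 without Flox library 1 and -0.22 without Flox library 2. Scn9a passed in all 16 alternatives and Cacng2 in 15 of 16, while Trpm5 passed in 14, Cacna1h in 12 and Trpm2 in 10 of 16.

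**Figure D5:**
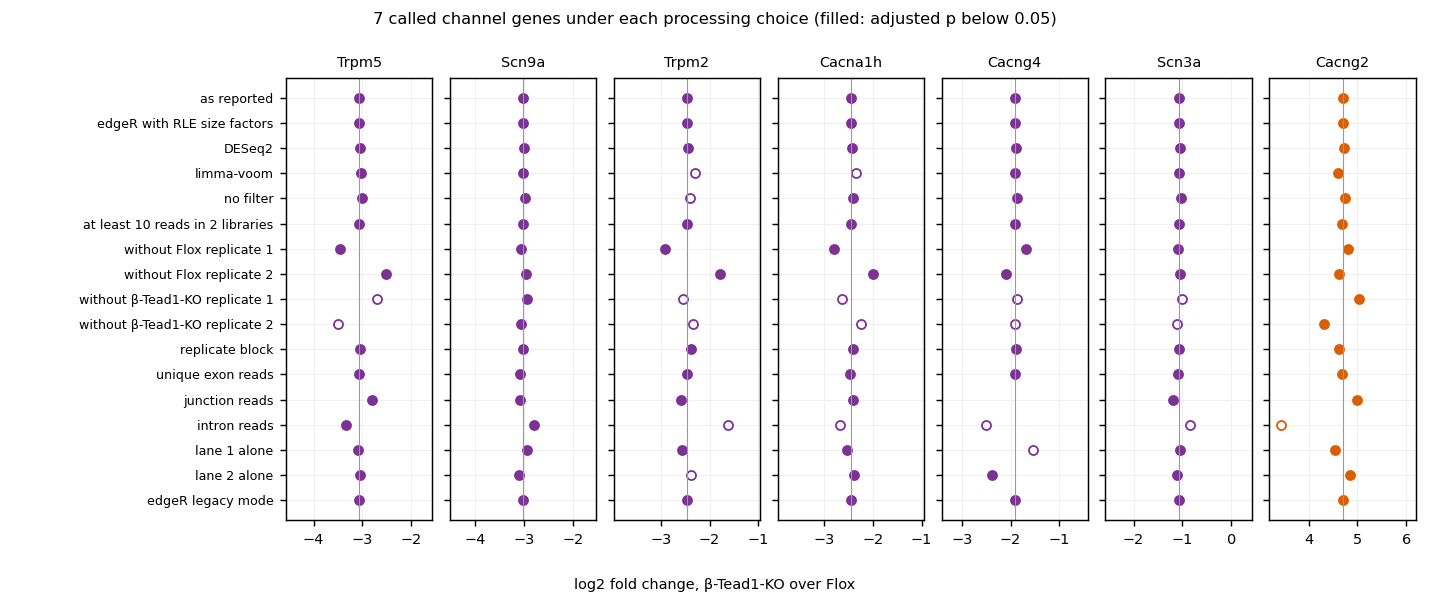
Log2 fold change, β-Tead1-KO over Flox, of 7 called genes as reported and under 16 other processing choices, 1 panel per gene; filled symbols had an adjusted p below 0.05, and panels of Cacng2 and of the others cover different ranges of equal width. Scn9a is filled throughout, and the open symbols of the other falling genes gather where a β-Tead1-KO library was left out and on intron reads.

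Genes that work with these channels were listed in 8 groups with 51 entries, of which 45 were tested; 1 fell and 1 rose. These calls were 4.44% of the 45, near the 3.36% of all tested genes. The median log2 fold change of the 45 was -0.25. An unadjusted p below 0.05 was found for 15 of the 45 (33.3%, against 16.8% of all tested genes). DESeq2 called 8 of them, where it called 6.68% of all genes with an adjusted p. Itpr2, a calcium release channel of the endoplasmic reticulum, was at 1.56 and 1.79 RPKM in libraries labelled β-Tead1-KO and at 3.599 and 5.77 in Flox (log2 fold change -1.48, SE 0.26, edgeR adjusted p = 0.0451). Slc8a3, a sodium-calcium exchanger of the plasma membrane, had 125 and 227 reads in libraries labelled β-Tead1-KO and 8 and 1 in Flox (log2 fold change 4.82, SE 0.57, adjusted p = 0.0166). Limma-voom called neither. The other 6 groups held 8 modulators of sodium channels, 4 genes of the sodium leak channel complex, 4 small GTPases that inhibit calcium channels, 7 calcium channel adaptors, 5 genes of store-operated entry and 4 of other TRP families. Of these 32 tested genes edgeR called 0, with 9 at an unadjusted p below 0.05 (28.1%, against 16.8% of all tested genes), and DESeq2 called 2 and limma-voom 0.

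Marker genes of islet cell types also differed between these libraries (edgeR). Of all tested genes edgeR called 3.36% and 16.8% had an unadjusted p below 0.05, and DESeq2 called 6.68% of genes with an adjusted p. Of the 6 δ-cell markers 2 fell (Sst and Fam159b), and the summed level of the list was 812 and 689 CPM (TMM-scaled exon reads) in libraries labelled β-Tead1-KO, against 2013 and 2258 CPM in Flox. Of 10 β-cell markers 1 fell (Slc2a2), while 9 had a log2 fold change below 0 (median -0.71), 6 had an unadjusted p below 0.05 and DESeq2 called 6. The β-cell list summed to 213285 and 185851 CPM in libraries labelled β-Tead1-KO and 220956 and 224341 CPM in Flox. Most of that came from the secreted products Ins1, Ins2 and Iapp, and the other 7 genes summed to 3557 and 3227 CPM in libraries labelled β-Tead1-KO and 6037 and 4558 CPM in Flox. The α-cell markers, with a median of -0.77 and 5 of 8 at an unadjusted p below 0.05, summed to 10185 and 8307 CPM in libraries labelled β-Tead1-KO and 17755 and 13925 CPM in Flox. Of 10 mesenchymal markers 2 rose (Col1a1 and Col1a2), with a median log2 fold change of 1.19 and 1 marker below 0. An unadjusted p below 0.05 was found for 5 of the 10, and DESeq2 called 5. Of 5 tested erythroid markers 1 rose (Hbb-bt), with a median of 1.58, all 5 at an unadjusted p below 0.05 and 3 called by DESeq2. The erythroid list summed to 317 and 235 CPM in libraries labelled β-Tead1-KO and 121 and 52.5 CPM in Flox. Msln fell, the only 1 of the 4 mesothelial markers that could be tested. The others, Wt1, Lrrn4 and Upk3b, had at most 4 reads in any library. The acinar sum was 838 and 6959 CPM in libraries labelled β-Tead1-KO and 1716 and 6180 CPM in Flox, high in library 2 of both genotypes. Over the 7 lists with no call, 10 of 43 tested markers (23.3%) had an unadjusted p below 0.05, and DESeq2 called 6 and limma-voom 0. Polypeptide-cell markers, one of these lists, summed to 1374 and 821 CPM in libraries labelled β-Tead1-KO and 2789 and 2914 CPM in Flox (median log2 fold change -0.97), with 3 of 4 at an unadjusted p below 0.05 and 2 called by DESeq2. Neural and Schwann cell markers, another of them, summed to 237 and 224 CPM in libraries labelled β-Tead1-KO and 266 and 280 CPM in Flox. Most of that sum came from Ncam1 (log2 fold change -0.08). All 6 tested genes of that list lay below 0 (median log2 fold change -0.46), with 2 at an unadjusted p below 0.05 and 1 called by DESeq2. No marker was at 0 in all libraries, and the part of any cell type in the channel results was not tested.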

How the data were processed

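Per the file headers, each lane has a deposited table of raw read counts by gene, with exon, exon-exon junction, intron and unique reads in columns of their own. The build named in the submitters' processing notes is mm10. Not given in the sources used here were the aligner, the counter and the strand setting. Libraries were made with a TruSeq RNA kit from hand-picked islets, per the labels' protocols.

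The 2 lanes of each library were added up over total exon counts, since lanes differed little more than sampling noise (chi-square over degrees of freedom 1.07 to 1.20, against 48.4 and 66.8 between libraries). Genes passing filterByExpr (minimum count 10, minimum total 15) were scaled with TMM and compared with edgeR 4.0.16 (R 4.3.3; quasi-likelihood F test, 2-sided, legacy mode off, adjusted over 15014 genes, threshold 0.05; biological coefficient of variation 24.3%). Fold changes are β-Tead1-KO over Flox; standard errors come from the F statistic. RPKM was computed from exon counts and exon length. DESeq2 1.42.0, limma 3.58.1, other filters and scalings, other read classes, single lanes and left-out libraries were alternatives; the fit was tested on simulated counts. Depth was 14069569 to 26387280 exon reads per library, and genes with few reads carry the larger counting error.

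The members and all lists were chosen with earlier results of these data known. Values per library are given for called genes, the most abundant gene of each class and a set known from islet electrophysiology; Cacna2d2, Scn8a, Trpc5 and Trpm6 and others outside this rule were added after their values were seen. Some genes are counted but not reported here one by one.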

Additional observations from a re-analysis of the deposited data

How the results depend on the processing

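Over 406 values of single genes under 16 alternatives, 350 kept their direction and side of the threshold, 27 lost a call, 16 gained one and 13 changed sign. The 8 called genes changed sign in none of their 127 values and lost the call in 27. Against 504 genes called in all, 1070 were called by DESeq2, 108 on intron reads and 67 to 2359 with a library left out. Against 8 members, 5 were called by limma-voom, 2 on intron reads and 2 to 17 with a library left out. A fit with a lone library in an arm takes the spread from the other pair, so the calls it gains or loses do not rank the genes. With library number as a replicate block 1157 genes and 11 members were called, the further members being Cacna2d2, Trpa1 and Trpm6 (edgeR adjusted p = 0.0430, 0.0283 and 0.0292); the labels do not say that a number marks shared animals, and the correlation of library 1 minus library 2 between the genotypes was 0.39 over 15014 genes.

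The signs that changed belonged to genes that were not called. With a library left out the log2 fold change ranged from -1.25 to 0.0012 for Cacna1a, from -0.83 to 0.0985 for Scn8a, from -0.11 to 0.42 for Cacnb2 and from -0.0193 to 0.17 for Cacnb3. It ranged from -0.30 to 0.0218 for Trpm4, from -0.0994 to 0.25 for Trpm7 and from -0.49 to 0.0028 for Trpv2. Junction reads gave -0.0251 for Cacnb2, lane 2 alone gave -0.0006 for Trpm7, and intron reads gave 0.73 for Trpc1, 0.54 for Trpm3 and 0.19 for Trpm4. The cause was not tested.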

Other observations

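Mcoln3, a TRP-related channel of endosomes and lysosomes chosen here after its values were seen, had 2 and 0 reads in libraries labelled β-Tead1-KO and 24 and 23 in Flox, and did not pass (edgeR adjusted p = 0.0548). Fgf14, a cytosolic modulator of sodium channels also chosen after its values were seen, was at 1.57 and 1.73 CPM (TMM-scaled) in libraries labelled β-Tead1-KO and at 4.09 and 4.16 in Flox (log2 fold change -1.32, SE 0.30, edgeR adjusted p = 0.0888). Its ranges did not overlap.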
